A study of Homo sapiens with 4 samples.

Results

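RD and JR1 are established cell lines of fusion-negative rhabdomyosarcoma (FN-RMS), a tumor of cells committed to skeletal muscle that lacks the *PAX* gene fusions of the other main subtype. 9 genes were expressed in RD and close to undetected in JR1. They are *GFRA1*, *DHRS3*, *MAGEA9*, *POSTN*, *ALDH1A2*, *PTN*, *ROR2*, *MARK1* and *TMEM200A*. They were chosen by their expression values alone, as genes with at least 5 TPM in both RD libraries and under 0.5 TPM in both JR1 libraries. TPM is an estimate of transcript abundance, made from reads per transcript length and scaled to the same total in every library. Short structural RNA genes (small nucleolar, nuclear, 7S, 5S, Y, vault and transfer RNA genes and microRNA genes, by symbol) were left out. The 9 genes are among 36670 genes of the deposited table that remained after 2653 such RNA genes were removed. Their difference between the lines was fixed by the choice and is described here without a test.

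Cells of each line were infected with a pLKO.1-puro lentivirus that expressed either a hairpin against *SKP2* (shSKP2.2) or a non-targeting hairpin (shSCR), and were selected with puromycin. *SKP2* encodes an F-box protein that brings substrates to an SCF ubiquitin ligase. There was 1 poly-A selected library for each line and condition, 4 libraries in all, so the spread between replicates could not be measured and nothing was tested. Both lines thus carry an integrated vector in either condition, and libraries of untransduced cells were not analysed here. TPM keep no read numbers, so the depth behind each value is unknown.

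The 9 genes fall into a few classes of known function. *ALDH1A2* and *DHRS3* act on the same intermediate of retinoid metabolism. Vitamin A (retinol) is oxidized to retinal, which ALDH1A2 turns into retinoic acid and DHRS3 reduces back to retinol. *GFRA1* encodes the cell surface co-receptor that presents the growth factor GDNF to the receptor tyrosine kinase RET. *PTN* encodes pleiotrophin, a secreted heparin-binding growth factor. *ROR2* encodes a receptor tyrosine kinase that binds WNT5A and acts in β-catenin-independent WNT signalling. *POSTN* encodes periostin, a secreted matrix protein with fasciclin domains. *MAGEA9* is an X-linked cancer-testis antigen, *MARK1* encodes a kinase of microtubule-associated proteins, and *TMEM200A* encodes a transmembrane protein of little known function.

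The libraries were first checked against the labels. *SKP2* was at 92.8 TPM in RD shSCR and 7.40 TPM in RD shSKP2.2, and at 46.5 and 2.72 TPM in the JR1 libraries. Of 9 markers of the skeletal muscle lineage, 7 had at least 5 TPM in all 4 libraries, among them *MYOD1* (87.0 to 131 TPM), whereas *MYF5* was listed at 0 in all 4. Markers of blood cells summed to at most 1.05 TPM in any library, those of epithelial cells to at most 5.92 TPM and those of endothelial cells to at most 6.83 TPM. The 6 fibroblast markers summed to 1377 and 1462 TPM in RD and 1302 and 584 TPM in JR1, nearly all from *COL3A1* and *COL1A1*, whereas *DCN*, another of them, had at most 0.06 TPM and *LUM* at most 3.46 TPM. The expression profiles of the lines were close, and whether the lines are as distinct in origin as their names was not tested, since no genotype data were used here. Over the 12850 genes whose mean over the libraries reached 1 TPM, Spearman's rho was 0.931 between RD shSCR and JR1 shSCR and 0.935 between RD shSKP2.2 and JR1 shSKP2.2, against 0.947 between both RD libraries and 0.925 between both JR1 libraries. These are correlations across genes, which are not independent replicates. One library stood apart in a few genes: *IRS4* and *CA2* had 9.71 and 8.29 TPM in RD shSCR and at most 0.14 TPM in the other 3 libraries. Both are expressed by HEK293T, the line in which the virus was packaged, and both were picked after their values had been seen. Of 9 other HEK293T markers, 5 were lower in RD shSKP2.2 than in RD shSCR. The same held for 79.3% of the 8315 genes with at least 5 TPM in both RD libraries. Among the 5, *HMX2* and *HMX3* had at most 0.86 and 0.17 TPM in RD. The 9 markers summed to 90.0 TPM in RD shSCR and 129 TPM in RD shSKP2.2, with 39.5 and 74.1 TPM from *NEFM*. In JR1 they summed to 30.9 and 53.2 TPM. *GAL* had 5.72 and 0.42 TPM in RD, whereas *LIN28B* had 13.1 and 16.1 TPM. In such bulk libraries, fewer cells that express a gene and less RNA of it per cell cannot be told apart.

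Expression in RD alone was rare in both directions. The 9 genes were 0.108% of the 8315 genes with at least 5 TPM in both RD libraries, called RD-expressed genes below. With the lines exchanged, 3 genes (*KRT75*, *EPHA3* and *DLX5*) met the same limits, 0.0392% of 7645 genes with at least 5 TPM in both JR1 libraries. With short structural RNA genes removed and the remaining TPM rescaled, the numbers were 7 for RD and 6 for JR1. In the shSKP2.2 libraries alone they were 14 and 19, so which line had more such genes depended on the setting. The 9 genes ranged from 6.89 to 52.8 TPM in RD shSCR and from 5.01 to 26.8 TPM in RD shSKP2.2. In JR1 they ranged from 0.02 to 0.48 TPM in shSCR and from 0 to 0.40 TPM in shSKP2.2. The term RD-only therefore stands for a low value in JR1 and not for absence, since each of the 9 was above 0 in at least the shSCR library of JR1. As a mean of both RD libraries, their median level was 16.3 TPM, near the median of 17.6 TPM of all RD-expressed genes. Of the 9, 3 lay above 17.6 TPM, and *GFRA1*, the highest, stood at percentile 79.2.

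Among the receptors, *GFRA1* had the highest level of the 9 genes. It lies on chromosome 10, from base 116056925 to base 116274705 of GRCh38. *GFRA1* was at 52.8 TPM in RD shSCR, 26.8 TPM in RD shSKP2.2, 0.18 TPM in JR1 shSCR and 0.22 TPM in JR1 shSKP2.2. As the limits required, RD was above JR1 in both conditions, by 5.51 with shSCR and 4.51 with shSKP2.2 on the scale of log2(TPM + 1). On this scale the added 1 holds down the difference of genes that are low in one line. The other co-receptors of this family were not detected at a comparable level: *GFRA2*, *GFRA3* and *GFRA4* had at most 0.14 TPM in any library. *RET*, the signalling receptor, had at most 0.13 TPM and *GDNF*, the ligand, at most 0.52 TPM. *NCAM1*, an alternative receptor of the GDNF and GFRA1 complex, was present in both lines, at 13.6 and 21.3 TPM in RD and 16.5 and 42.7 TPM in JR1.

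The promoters of *DHRS3* and *ALDH1A2*, the retinoid pair, and of *GFRA1* and *PTN* are shown because they differ in one sequence feature that the choice of genes did not use, the content of CpG dinucleotides, high in the first pair and low in the second. Each is the 250 bases before the RefSeq start site on the strand of the gene (GRCh38.p14), with every CG in capitals. All 4 genes are on the minus strand.
DHRS3, chr1:12618211-12618460: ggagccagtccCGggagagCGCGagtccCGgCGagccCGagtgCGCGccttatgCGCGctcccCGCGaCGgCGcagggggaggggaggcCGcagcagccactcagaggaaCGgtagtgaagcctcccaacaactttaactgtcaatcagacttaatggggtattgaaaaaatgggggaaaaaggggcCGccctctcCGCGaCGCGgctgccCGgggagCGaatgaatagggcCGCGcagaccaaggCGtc
ALDH1A2, chr15:58065712-58065961: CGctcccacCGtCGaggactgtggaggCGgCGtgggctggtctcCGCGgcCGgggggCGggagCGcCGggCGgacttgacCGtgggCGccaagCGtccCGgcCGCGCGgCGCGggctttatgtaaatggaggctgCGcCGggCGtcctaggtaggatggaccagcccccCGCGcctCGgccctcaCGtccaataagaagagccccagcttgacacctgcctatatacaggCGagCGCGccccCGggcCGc
GFRA1, chr10:116274706-116274955: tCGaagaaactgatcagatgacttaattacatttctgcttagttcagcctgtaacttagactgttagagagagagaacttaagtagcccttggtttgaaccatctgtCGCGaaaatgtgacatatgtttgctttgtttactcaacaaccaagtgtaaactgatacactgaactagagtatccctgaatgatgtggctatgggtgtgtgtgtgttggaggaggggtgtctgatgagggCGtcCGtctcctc
PTN, chr7:137343734-137343983: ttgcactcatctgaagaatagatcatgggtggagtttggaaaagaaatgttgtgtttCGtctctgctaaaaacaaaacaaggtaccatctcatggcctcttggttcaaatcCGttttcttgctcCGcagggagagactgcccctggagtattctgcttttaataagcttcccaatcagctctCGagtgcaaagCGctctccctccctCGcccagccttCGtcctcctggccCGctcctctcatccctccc
*ALDH1A2* holds 33 and *DHRS3* 26 of these dinucleotides, *PTN* 8 and *GFRA1* 5.

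The ratio of observed to expected CpG in these windows was 1.00 for *ALDH1A2*, 0.99 for *DHRS3*, 0.53 for *PTN* and 0.44 for *GFRA1*. A RefSeq promoter was matched for 8 of the 9 genes. In 4 of the 8 the ratio was at least 0.6, the other 2 being *ROR2* and *TMEM200A*, whereas this held for 85% of 6781 promoters of RD-expressed genes and 47.4% of all 27305 promoters. The lowest ratios were those of *MAGEA9* (0.28) and *POSTN* (0.12, from a single CG). Short motifs were then looked up on both strands. GGGCGG, which itself holds a CG, was present in the same 4 promoters, against 70% of those of RD-expressed genes and 42.3% of all. TATAAA was found in the promoter of *POSTN* alone, 29 and 182 bases before the start, and in 5.32% of the promoters of RD-expressed genes. The E-box CAGCTG was found in 1 of the 8 promoters, that of *ROR2*, and in 11.9% of RD-expressed promoters. CACCTG, another E-box, was found in that of *ALDH1A2* and in 13.4%. The nuclear receptor half-site AGGTCA was found in that of *MAGEA9* and in 7.79% of RD-expressed promoters. A match of letters is a description of the window and does not show that a factor binds there.

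Of the 9 genes, the retinoid pair had the lowest and the highest value in JR1 shSCR. *DHRS3* (chromosome 1, from base 12567910 to base 12618210) was at 47.5 TPM in RD shSCR, 11.6 TPM in RD shSKP2.2, 0.48 TPM in JR1 shSCR and 0.16 TPM in JR1 shSKP2.2. *ALDH1A2* (chromosome 15, from base 57953429 to base 58065711) was at 20.0 TPM in RD shSCR, 12.6 TPM in RD shSKP2.2, 0.02 TPM in JR1 shSCR and was listed at 0 in JR1 shSKP2.2. The RD libraries thus exceeded the JR1 libraries by 5.04 and 3.44 for *DHRS3* and by 4.36 and 3.77 for *ALDH1A2* on the log2(TPM + 1) scale, shSCR first. The isozymes *ALDH1A1* and *ALDH1A3* had at most 0.14 TPM in any library, so *ALDH1A2* was the one gene of the 3 retinal dehydrogenases listed here that was expressed at 5 TPM or more.

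A list of 26 other genes of retinoid transport, metabolism and signalling was then read in the same libraries. It was written from general knowledge after the 9 genes were known. 13 of the 26 had a mean over the libraries of 1 TPM or more, and 10 were under 0.5 TPM in every library. Differences of at least 1 on the log2(TPM + 1) scale between the lines in both conditions were used to describe such partner genes. By this measure RD was higher for 3.37% of 12850 genes and JR1 for 1.7%. Over the partner lists of all 9 genes together, RD was higher for 6 of 65 genes with such a mean and JR1 for 4. *RDH10*, a main enzyme that oxidizes retinol to retinal, was the 1 gene of the 13 that was higher in RD, and none was higher in JR1. *RDH10* was at 54.5 TPM in RD shSCR, 22.8 TPM in RD shSKP2.2, 6.60 TPM in JR1 shSCR and 6.72 TPM in JR1 shSKP2.2. *STRA6*, which encodes a retinol uptake receptor, was at 8.76 and 1.59 TPM in RD and 2.76 and 0.63 TPM in JR1, with a difference above 1 between the shSCR libraries only. *CRABP2*, which carries retinoic acid to the nucleus, was the highest of the list in both lines, at 277 and 337 TPM in RD and 194 and 232 TPM in JR1. The receptors *RARA*, *RARG* and *RXRA* had between 6.09 and 23.6 TPM in all libraries. *RXRB* was at 33.6 and 17.1 TPM in RD and 12.15 and 9.40 TPM in JR1, higher in RD by more than 1 between the shSCR libraries only. *RXRG* was at 1.93 and 0.57 TPM in RD and 0.85 and 3.91 TPM in JR1, higher in JR1 by more than 1 between the shSKP2.2 libraries only. The degrading enzymes *CYP26A1*, *CYP26B1* and *CYP26C1* had at most 0.91 TPM. The receptor gene *RARB* had at most 0.40 TPM.

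**Figure D1:**
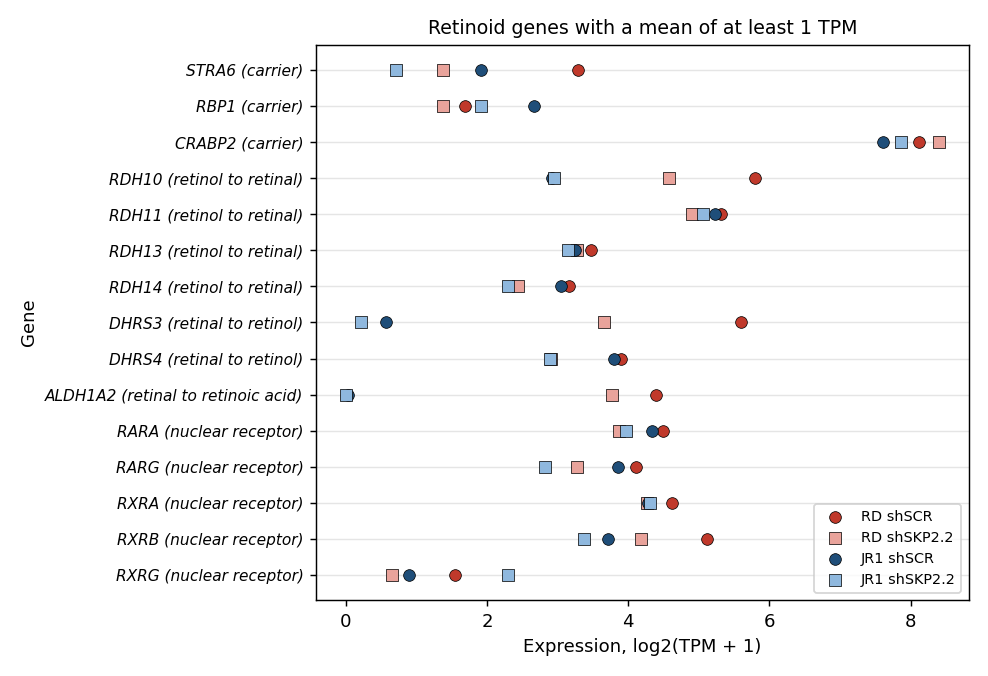
The x axis gives expression as log2(TPM + 1) for the 13 retinoid genes of the list whose mean reached 1 TPM and for *DHRS3* and *ALDH1A2*, with their step in parentheses. Each point is 1 library, red for RD and blue for JR1, circles for shSCR and squares for shSKP2.2. *DHRS3*, *ALDH1A2* and *RDH10* separate the lines, whereas *CRABP2*, *RDH11*, *RARA* and *RXRA* lie close together.

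The secreted factor *PTN* (chromosome 7, from base 137227341 to base 137343733) was at 15.3 TPM in RD shSCR, 6.29 TPM in RD shSKP2.2, 0.19 TPM in JR1 shSCR and 0.07 TPM in JR1 shSKP2.2. *MDK*, which encodes the related growth factor midkine, was abundant in both lines, at 825 and 377 TPM in RD and 521 and 300.1 TPM in JR1. Of 7 listed partners of *PTN*, *SDC3*, a heparan sulfate proteoglycan that binds pleiotrophin, was higher in RD by the measure above, at 87.4 and 71.6 TPM against 25.4 and 32.5 TPM in JR1. *ALK* was higher in JR1, at 2.06 and 7.46 TPM against 0.25 and 0.64 TPM in RD. *PTPRZ1*, a receptor phosphatase for both ligands, had at most 0.02 TPM.

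*ROR2* (chromosome 9, from base 91722598 to base 91950228) was at 10.3 TPM in RD shSCR, 6.53 TPM in RD shSKP2.2, 0.23 TPM in JR1 shSCR and 0.07 TPM in JR1 shSKP2.2. The lines were apart, as the limits required, with differences of 3.20 and 2.82 on the log2(TPM + 1) scale. Its paralog *ROR1* had at most 0.22 TPM in any library. The ligand *WNT5A* was present in both lines, at 30.7 and 13.2 TPM in RD and 29.97 and 22.2 TPM in JR1, and so were the receptors *PTK7* (68.6 to 109 TPM) and *RYK* (14.9 to 17.1 TPM). By the measure above, RD was higher for 3.37% of 12850 genes and JR1 for 1.7%. Of 16 measured genes of this pathway other than *ROR2*, 3 were higher in RD in both conditions and none in JR1. These were *FZD7* (72.0 and 55.3 TPM against 22.1 and 16.1 TPM), and the planar polarity genes *VANGL2* (27.9 and 17.1 TPM against 10.6 and 3.75 TPM) and *PRICKLE1* (2.48 and 7.59 TPM against 0.19 and 2.77 TPM).

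*POSTN* (chromosome 13, from base 37562585 to base 37598839) was at 18.7 TPM in RD shSCR, 15.8 TPM in RD shSKP2.2, 0.10 TPM in JR1 shSCR and 0.08 TPM in JR1 shSKP2.2, with differences between the lines of 4.16 and 3.96. Its paralog *TGFBI*, which encodes the other fasciclin protein of the list, did not separate the lines, at 41.6 and 8.53 TPM in RD and 47.9 and 8.41 TPM in JR1. Periostin binds other matrix proteins. By the measure above, JR1 was higher for 1.7% of 12850 genes and RD for 3.37%. Of the 11 measured partners and integrins, 3 were higher in JR1 and none in RD. These 3 were *TNC* (147 and 112 TPM in RD against 601 and 361 TPM in JR1), *COL1A2* (0.09 and 0.28 TPM against 5.24 and 4.63 TPM) and *LOX* (11.3 and 14.7 TPM against 55.6 and 35.2 TPM). *COL1A1*, the partner chain of *COL1A2* in type I collagen, was at 307 and 77.0 TPM in RD and 387 and 65.8 TPM in JR1.

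*MAGEA9* (chromosome X, from base 149781876 to base 149787737) was at 17.8 TPM in RD shSCR, 18.8 TPM in RD shSKP2.2 and 0.35 TPM in JR1 shSCR, and was listed at 0 in JR1 shSKP2.2. Its value is uncertain, because *MAGEA9B*, a near-identical copy 194 kb away, shares its reads, and the estimate divides them. *MAGEA9B* was at 3.83 and 3.30 TPM in RD and 0.35 and 0.66 TPM in JR1. The sum of both copies was 21.6 and 22.1 TPM in RD and 0.70 and 0.66 TPM in JR1, so the summed pair would have missed the limit of 0.5 TPM in JR1. Other members of the family did not separate the lines: *MAGEA3* was at 65.0 and 63.9 TPM in RD and 58.8 and 54.7 TPM in JR1, and *MAGEA10* at 28.7 and 25.2 TPM against 26.9 and 21.4 TPM. Of 22 RD-expressed genes of cancer-testis families, 20 also had at least 5 TPM in both JR1 libraries. The same share over all RD-expressed genes was not counted. The exceptions among the 22 were *MAGEA9* and *GAGE12J*. *GAGE12J* went from 4.40 TPM in JR1 shSCR to 0 in JR1 shSKP2.2 and belongs to a cluster of near-identical copies.

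*MARK1* and *TMEM200A* were the lowest of the 9 in RD. *MARK1* (chromosome 1, from base 220528136 to base 220664461) was at 7.50 TPM in RD shSCR, 5.01 TPM in RD shSKP2.2, 0.13 TPM in JR1 shSCR and 0.40 TPM in JR1 shSKP2.2. The other kinases of its family, *MARK2*, *MARK3* and *MARK4*, had between 11.6 and 24.4 TPM in all libraries, and none differed between the lines by 1 or more. *TMEM200A* (chromosome 6, from base 130366017 to base 130443424) was at 6.89 TPM in RD shSCR, 5.46 TPM in RD shSKP2.2, 0.18 TPM in JR1 shSCR and 0.31 TPM in JR1 shSKP2.2. *TMEM200B* was found in both lines, at 8.82 and 5.15 TPM in RD and 4.25 and 3 TPM in JR1.

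The comparison that the choice did not use directly is that of shSKP2.2 with shSCR within RD, although the limit of 5 TPM in both RD libraries removed genes that dropped below it. The members were therefore read beside all 8315 RD-expressed genes, which met the same limit. On the log2(TPM + 1) scale, 2 of the 9 were lower by 1 or more, against 6.94% of RD-expressed genes: *DHRS3* fell by 1.95 and *PTN* fell by 1.16. None of the 9 was higher by 1 or more, against 0.253%. Counts over so few genes do not set the 9 apart. 8 of the 9 were lower with shSKP2.2 to any degree, as were 79.3% of RD-expressed genes, whose median change was -0.29. The share of TPM taken by short structural RNAs went from 50.1% to 62.3% in RD with shSKP2.2, which leaves a smaller part of the fixed total for the other genes. The median change of the 9 genes was -0.58.

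*DHRS3* kept 24.4% of its shSCR level and had a lower change than all but 0.541% of RD-expressed genes. With the short structural RNA genes taken out and the remaining TPM brought back to the full total, its change was -1.60. *PTN* kept 41.2% of its level, at percentile 4.59 of the changes, and its change was -0.84 on that rescaled basis, short of the limit of 1. *GFRA1* kept 50.7%, with a change of -0.95 at percentile 7.93. *ALDH1A2* (-0.62), *ROR2* (-0.58) and *MARK1* (-0.50) lay between percentiles 20.4 and 28.8. *TMEM200A* (-0.29) and *POSTN* (-0.23) were near the median of all RD-expressed genes, and *MAGEA9* was at 0.07. Of 49 listed partners that were RD-expressed, 8 (16.3%) fell by 1 or more, against 6.94% of all RD-expressed genes, and none rose. These 8 were *RDH10*, *DHRS4*, *MDK*, *WNT5A* and 4 genes of the periostin list (*TGFBI*, *COL1A1*, *COL5A1* and *ITGB1*). After centring on the median, 3 of the 49 still fell by 1 or more (6.12%, against 3.01% of all), namely *TGFBI*, *COL1A1* and *COL5A1*, and the same 3 did so with the structural RNA genes taken out (against 2.54% of all), where 1 partner rose. *RDH10* had a change of -1.22 in RD and 0.02 in JR1, *MDK* of -1.13 and -0.79, and *WNT5A* of -1.16 and -0.42. For *DHRS4* it was -1.003 in RD and -0.91 in JR1, and for *ITGB1* -1.13 and -0.83. *TGFBI* (-2.16 in RD and -2.38 in JR1), *COL1A1* (-1.98 and -2.54) and *COL5A1* (-1.38 and -1.40) fell at least as much in JR1. The HEK293T genes *IRS4* and *CA2* had larger changes in RD, -3.41 and -3.22. A gene with a change of that size from a like level could not have met the limit of 5 TPM in RD shSKP2.2. Their part in the lower values of the 9 genes was not tested.

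**Figure D2:**
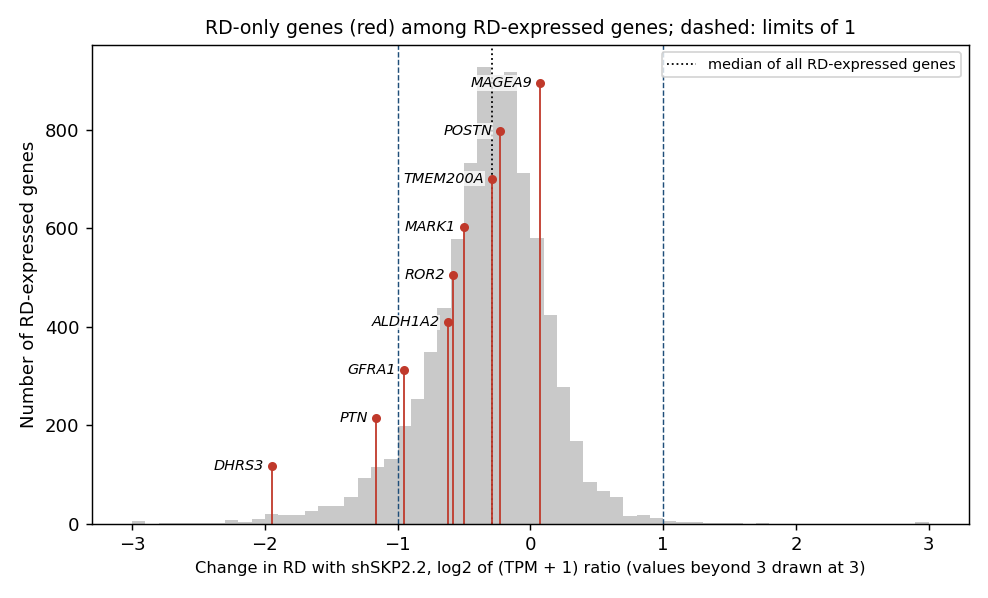
The histogram gives the number of RD-expressed genes (y axis) by their change with shSKP2.2 in RD (x axis, log2 of the ratio of TPM + 1), with the 9 RD-only genes as red lines of arbitrary height. The dotted line is the median of -0.29 and the dashed lines mark changes of 1. *DHRS3* lies in the far left tail, *PTN* and *GFRA1* on either side of the limit, and the others within the bulk of genes.

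The genomic surroundings of the 9 genes were read for other genes that differed between the lines. No 2 of the 9 lay within 500 kb of each other, and the 9 are spread over 8 chromosomes. Of 119 other genes within 500 kb of one of them, 17 were RD-expressed. 15 of these 17 also had at least 5 TPM in both JR1 libraries and none was under 1 TPM in JR1. Of all 36670 genes, 8315 reached 5 TPM in both RD libraries and 7645 in both JR1 libraries. The share of RD-expressed genes that reached it in both lines was not counted, so these counts are not read as a trait of the surroundings. The 17 lay near 6 of the 9 genes; *GFRA1*, *POSTN* and *PTN* had no RD-expressed neighbour, and the only one near *ALDH1A2*, *POLR2M*, was at 8.11 and 5.56 TPM in RD and 6.49 and 4.72 TPM in JR1. Examples are *SPTLC1*, 80.9 kb from *ROR2*, at 29.2 and 16.4 TPM in RD and 23.4 and 16.3 TPM in JR1, and *MAGEA11*, 64.6 kb from *MAGEA9*, at 19.4 and 13.7 TPM against 15.1 and 13.0 TPM. Some genes of lower level beside *MARK1* and *POSTN* are named here after their values were seen. Of these, *HLX* was higher in JR1 and the others in RD. *C1orf115*, 25.9 kb from *MARK1*, was at 6.69 and 4.85 TPM in RD and 1.03 and 0.80 TPM in JR1. *MTARC2*, 83.0 kb from *MARK1*, was at 2.57 and 1.62 TPM against 0.62 and 0.43 TPM, and *MTARC1*, 122 kb from *MARK1*, at 5.62 and 3.90 TPM against 0.70 and 1.34 TPM. *HLX*, a homeobox gene 215 kb from *MARK1*, was higher in JR1, at 13.8 and 16.8 TPM against 4.41 and 5.34 TPM in RD. *TRPC4*, 33.2 kb from *POSTN*, was at 1.38 and 1.17 TPM in RD and 0.35 and 0.13 TPM in JR1.

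All 9 genes encode proteins. Read against lists of gene families, 1 of the 9 was a cancer-testis gene (*MAGEA9*), 1 a gene of the extracellular matrix (*POSTN*) and 1 a tyrosine kinase of the list (*ROR2*), out of 22, 78 and 12 RD-expressed genes of those lists. None was a *HOX* gene (22 RD-expressed), a developmental transcription factor (68), a C2H2 zinc finger gene (231), an ion channel (22), a solute carrier or transporter (137), an imprinted gene (11), a G protein-coupled receptor (35) or a long noncoding RNA by symbol (101). The cancer-testis, matrix and tyrosine kinase lists made up 0.265%, 0.938% and 0.144% of RD-expressed genes. The largest list, that of C2H2 zinc finger genes, made up 2.78%. Such counts over so few genes do not set the 9 apart. *PTN*, a secreted ligand, was not part of the list of secreted ligands, which had 50 RD-expressed genes.

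Several genes lay just beyond the limits. Just inside the RD limit were *MARK1* and *TMEM200A* (lower RD values of 5.01 and 5.46 TPM), and just outside it *CDH4*, a cadherin (4.11 TPM), and *LOC105372321*, a long noncoding RNA (3.91 TPM). Just inside the JR1 limit were *DHRS3* and *MARK1* (higher JR1 values of 0.48 and 0.40 TPM). Just outside it were *CNTFR*, which encodes a receptor subunit of ciliary neurotrophic factor (0.53 TPM), and *PHACTR2* (0.61 TPM). Another 3 genes had RD values of at least 5 TPM and JR1 values that stayed under 1 TPM. *NEFM*, a neuronal intermediate filament and one of the HEK293T markers, was at 39.5 and 74.1 TPM in RD and 0.51 and 0.96 TPM in JR1. *MACROH2A2*, a histone variant, was at 33.4 and 18.5 TPM against 0.70 and 0.77 TPM. *HTR2B*, a serotonin receptor, was at 17.5 and 7.22 TPM against 0.81 and 0.75 TPM. Among the short structural RNA genes that were set aside, 4 snoRNA genes (*SNORA4*, *SNORA6*, *SNORA22B* and *SNORA38*) met the TPM limits and were listed at 0 in JR1.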

How the data were processed

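1 library was available for each of RD shSCR, RD shSKP2.2, JR1 shSCR and JR1 shSKP2.2. The authors prepared strand-specific poly-A libraries, sequenced read pairs of 150 bases, aligned them to GRCh38 (STAR 2.7.9a) and estimated the deposited TPM with RSEM 1.3.2; the gene annotation is not given in the sources used here. TPM keep no depth, so no counting error is given, and with 1 library per line and condition no test was made; a fit of line and hairpin as additive terms over the 4 libraries, which would leave 1 residual degree of freedom, was not run. Differences are log2 of ratios of TPM + 1. Gene coordinates are those of the deposited tables, and promoters are the RefSeq windows of 250 bases upstream.

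The members, lists and limits were chosen with earlier results of these data known, and the partner lists after the 9 genes were known but before their own values were read. The rule for named genes took the 30 highest members, hence all 9, the genes nearest the limits, markers and *SKP2*; partners, neighbours and genes met in a single condition were added after their values were seen. Alternatives were other limits, single conditions, a pseudocount of 0.1, centring on the median, removal of short structural RNA genes, a limit of 1.5-fold and a minimum mean of 1 TPM. After seeing the data, 2 more were added: the median without *MAGEA9*, and the removal combined with the shSCR libraries alone. The calculations used Python 3.11.15, numpy 2.4.6 and pandas 2.3.3, and the figures matplotlib 3.10.9. The selection of genes and the log2 change were tested on simulated data with genes planted to meet the limits. The other calculations were not tested in this way.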

Additional observations from a re-analysis of the deposited data

Results flagged for a closer look

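In 4 of the 9 genes the change with shSKP2.2 had opposite signs in RD and JR1, as it had in 20.2% of RD-expressed genes. The difference of the changes (RD less JR1, log2 of the ratio of TPM + 1) was -1.002 for *GFRA1* (-0.95 in RD and 0.05 in JR1), -0.81 for *MARK1* (-0.50 and 0.31), -0.44 for *TMEM200A* (-0.29 and 0.15) and 0.51 for *MAGEA9* (0.07 and -0.43). The difference was not tested, as there was 1 library per line and condition. All JR1 values behind it were under 0.5 TPM, the limit by which the genes were chosen. The count depends on the scaling. With the changes of each line centred on their median over RD-expressed genes it was 6. The share of all RD-expressed genes after centring was not counted, so the 6 is not to be set beside the 20.2%. The RD change of *TMEM200A* was 0.06 with short structural RNA genes removed.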

How the results depend on the processing

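The number of RD-only genes was 9. It was 19 with a minimum of 2 TPM and 5 with 10 TPM, 1 with an upper limit of 0.1 TPM (*ALDH1A2*) and 14 with 1 TPM, and 18 in the shSCR and 14 in the shSKP2.2 libraries alone. After removal of short structural RNA genes it was 7, of which 3 (*ALDH1A2*, *POSTN* and *PTN*) were among the 9, since the rescaled JR1 values of the others passed 0.5 TPM; with the shSCR libraries alone it was then 18, an alternative chosen after seeing the data. The number of JR1-only genes was 3, and in the same order of alternatives 17, 1, 1, 6, 14, 19 and 6. The median change of the 9 genes (-0.58) was -0.65 with a pseudocount of 0.1 TPM, -0.30 after centring, -0.24 after removal of short structural RNA genes and -0.60 without *MAGEA9*. The count of the 9 lower by at least 1 (2) was 1 after centring (*DHRS3*), 1 after that removal and 4 with a limit of 1.5-fold; that of rises was 0 in all 5 settings. Of all RD-expressed genes 21 rose and 577 fell. These were 62 and 250 after centring, 123 and 211 after the removal, 123 and 1902 with a limit of 1.5-fold, and 112 and 943 for all genes whose mean reached 1 TPM. Rises were therefore 0.253% and falls 6.94% as deposited, against 1.48% and 2.54% after the removal. Each change was taken within a line, between shSKP2.2 and its paired shSCR library. No paired test was made, since there was 1 library per line and condition and the labels give no replicate numbers.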

Other observations

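Applied to the shSCR libraries alone, the limits gave 9 genes beyond the members, and all values of these genes are single libraries. 8 of them were *CDH4*, *COL8A1*, *AMOT*, *PCSK1*, *DPYSL5*, *IRS4*, *CA2* and *ISL1*, and the other is a long noncoding RNA whose level is not given here. *COL8A1*, a short-chain collagen, was at 11.98 TPM in RD shSCR and 1.86 TPM in RD shSKP2.2. *PCSK1*, a prohormone convertase, was at 10.2 and 3.74 TPM and was listed at 0 in both JR1 libraries. *AMOT*, which encodes the YAP-binding protein angiomotin, was at 11.7 and 3.04 TPM, and *ISL1*, a LIM homeobox factor, at 7.89 and 1.60 TPM. *DPYSL5* kept 5.47 TPM in RD shSKP2.2 and missed the limit through JR1 shSKP2.2, at 1.08 TPM.

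The shSKP2.2 libraries alone gave 5 genes beyond the members, *GAGE12J*, *ALX4*, *CNTFR*, *EMILIN3* and *ATP9A*, each of which had more than 0.5 TPM in JR1 shSCR. *ALX4*, a homeobox factor of limb and craniofacial mesenchyme, was at 29.98 and 13.7 TPM in RD and 1.10 and 0.46 TPM in JR1. *EMILIN3*, an extracellular matrix glycoprotein, was at 11.1 and 5.73 TPM against 1.25 and 0.43 TPM. Of the 3 genes found in JR1 and not in RD, *KRT75*, a keratin of the hair follicle, was at 43.99 and 24.99 TPM in JR1 and 0.06 and 0.47 TPM in RD. *EPHA3*, an ephrin receptor, was at 7.18 and 10.1 TPM against 0.09 and 0.04 TPM, and *DLX5*, a homeobox factor, at 7.53 and 7.87 TPM against 0.42 TPM and 0.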
